A study of Mus musculus with 66 samples.

Results

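The 9 genes described here encode the antibody heavy chains of IgA (Igha), IgM (Ighm) and IgG (Ighg1, Ighg2b and Ighg2c), the kappa light chain (Igkc), the joining chain (Jchain), the plasma cell chaperone Mzb1 and the epithelial receptor that carries antibody into the gut lumen (Pigr). They were chosen by gene symbol, at a time when earlier results of these data were known. All 9 were found among the 30452 genes of the deposited table, and their 17 transcripts were summed per gene. Values are TPM, a transcript abundance scaled by transcript length in which each library sums to 1000000, so that levels of different genes can be set side by side.

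The samples were 66 RNA sequencing libraries from 19 wild-type C57Bl/6 mice, bought at 6 weeks of age and given 3% dextran sulfate sodium (DSS) for 6 days from day 0. DSS is a polysaccharide that injures the colonic epithelium and causes colitis. Uninjured controls (day 0, 4 mice) received no DSS, and 3 mice each were dissected at day 3, day 6, day 9, day 14 and day 20. The mid-colon, rectum and anus were taken from all 19 mice, and the squamous neo-epithelium, squamous lining that covers part of the injured colon, from the 9 mice of days 9, 14 and 20. Muscle layers were discarded, and each library is 1 section of 1 mouse. Each day has its own mice, and every day is compared with the same 4 controls, so the day comparisons are not independent of each other. The libraries of single cells named in the study's design were not used here.

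Plasma cells of the gut lining make mostly IgA. Its chains pair with kappa or lambda light chains, are joined by the J chain into polymers, bind Pigr on the basal side of epithelial cells and are carried to the lumen as secretory IgA. IgM can use the same J chain and receptor, whereas IgG is a monomer without a J chain. Each heavy-chain gene makes a secreted transcript, typical of plasma cells, and a membrane transcript, which encodes the antigen receptor of B cells.

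The heavy-chain genes lie on the minus strand of chromosome 12 (GRCm38), each annotated as an immunoglobulin constant gene. In GENCODE M21, Ighm is at chr12:113418558-113422730, Ighg1 at chr12:113325240-113330523, Ighg2b at chr12:113302965-113307933, Ighg2c at chr12:113285325-113288932 and Igha at chr12:113254830-113260236. Igkc is at chr6:70726435-70726966 (plus strand), Jchain at chr5:88519809-88527891 (minus strand) and Pigr at chr1:130826684-130852249 (plus strand). The last coding bases of the secreted transcripts, after the point where the membrane transcripts splice away, show which classes can take up the J chain. They are exonic, run 5′ to 3′ on the gene's strand to the stop codon, and the capitals mark the codon of the cysteine before the last residue, through which IgA and IgM polymers are linked.
Ighm, secreted end, chr12:113420867-113420928: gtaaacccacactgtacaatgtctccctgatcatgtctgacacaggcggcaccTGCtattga
Igha, secreted end, chr12:113258768-113258829: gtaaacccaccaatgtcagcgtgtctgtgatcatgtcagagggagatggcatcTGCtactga
These ends have the same length, 62 bases, and were identical at 43 of them. The matching ends of Ighg1, Ighg2b and Ighg2c were 8 bases long and held no cysteine codon. The membrane transcripts end instead in 125 coding bases in Ighm and 197 in Igha.

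Igkc had the highest single level of the 9 genes and ranged from 2.48 to 8278 TPM over the 66 libraries (median 271). Igha ranged from 1.14 to 2365 TPM, Jchain from 0.0991 to 897 TPM, Ighm from 0.995 to 154 TPM, Mzb1 from 0.0596 to 43.3 TPM and Pigr from 0.678 to 1825 TPM. The IgG genes were lower. Ighg1 reached 36.4 TPM and was listed at 0 in 7 libraries, Ighg2b reached 80.8 TPM and was listed at 0 in 9, and Ighg2c reached 35.9 TPM and was listed at 0 in 25. The file holds no read counts, so the depth behind each value is unknown and a value of 0 sets no upper limit.

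The section labels were checked against markers. Summed colonic epithelial markers (8 genes) lay between 7928 and 17088 TPM in mid-colon and rectum and between 83.7 and 6193 TPM in the anus, whereas summed squamous markers (6 genes) lay between 7698 and 22204 TPM in the anus and between 3.43 and 766 TPM in mid-colon and rectum. The anus also held 1492 to 14336 TPM of skeletal muscle markers although muscle was dissected away. The median log2 difference of all genes tested lay more than 0.1 from 0 in 8 comparisons, by -0.27 in rectum and -0.24 in mid-colon at day 6, 0.14 in mid-colon at day 3, 0.13 in rectum at day 9, -0.15 between anus and rectum, 0.21 between rectum and mid-colon, 0.18 between neo-epithelium and anus, and -0.14 between days 20 and 9 of the neo-epithelium.

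At day 0 the antibody genes were lower in the anus than in the rectum. Igha was 265, 63.9, 122 and 132 TPM in the rectum of mice 1 to 4 and 33.0, 27.6, 5.43 and 79.6 TPM in their anus. Every mouse had less in the anus, although the highest anal value exceeded the lowest rectal one. Of 6 members tested, 5 were lower in the anus, where 60.3% of all genes differed in either direction and 34.4% were lower (limma on log2(TPM + 1), adjusted p under 0.05 over all genes). They were Igha (log2 difference -2.28 ± 0.68 SE, adjusted p = 0.0149), Igkc (-2.22, adjusted p = 0.00933), Jchain (-2.06, adjusted p = 0.0203), Mzb1 (-1.28, adjusted p = 0.00792) and Pigr (-1.94, adjusted p = 0.00144). Ighm was 8.13 ± 7.40 TPM in rectum and 10.7 ± 2.93 TPM in anus (SD, n = 4 each, log2 difference 0.74, adjusted p = 0.254). All 8 colonic epithelial markers were lower in the anus too, 1 of them tested through the rectum alone (median log2 difference -2.40, against -0.15 over all genes), and their part in the result was not tested. Without mouse 1 only 3 members were called, with adjusted p = 0.0657 for Igha and 0.0947 for Jchain, and without mouse 3 Mzb1 had adjusted p = 0.0513. Rectum and mid-colon differed in 0 of 7 members at day 0 (limma, 1.79% of all genes), also at an unadjusted p under 0.05, and Igha averaged 146 ± 85.2 TPM in the former and 128 ± 86.9 TPM in the latter (SD).

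**Figure D1:**
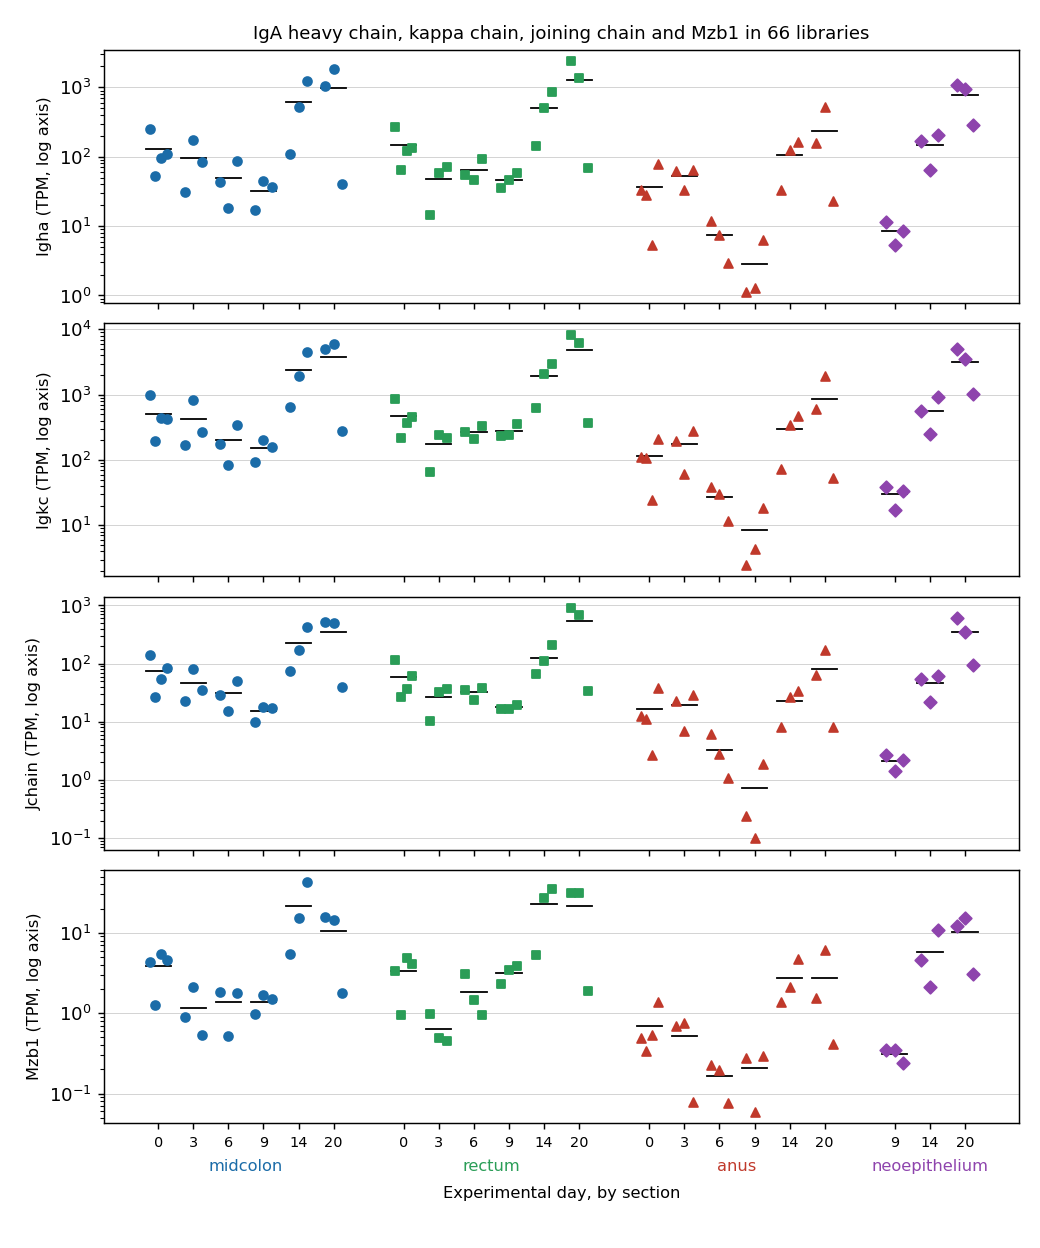
Igha, Igkc, Jchain and Mzb1 in TPM (log axes) in each library, by section and experimental day. Points are mice in order of mouse number and bars are group means; Igha is lowest in the anus at day 9 (1.14 to 6.22 TPM) and highest in the rectum of mouse 17 at day 20 (2365 TPM), when mouse 19 (last point) is low in mid-colon and rectum.

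Igha, Igkc, Jchain and Mzb1, genes of IgA plasma cells, fell in the mid-colon 9 days after the start of DSS, and at days 14 and 20 none of the 4 passed the test there. In the mid-colon, Igha was 253, 52.4, 97.2 and 108 TPM in the 4 controls, 43.6, 18.5 and 85.8 TPM at day 6, 16.9, 44.1 and 36.8 TPM at day 9, 111, 528 and 1232 TPM at day 14, and 1033, 1860 and 41.1 TPM at day 20. All 3 mice of day 9 lay below all 4 controls. At days 14 and 20 the mice split: mouse 14 was within the range of the controls, mouse 19 lay below it, and the other 4 lay above it. In bulk tissue, fewer cells of a type and less RNA per cell cannot be told apart.

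At day 3, 0 of 8 members tested changed in the mid-colon (0.375% of all genes, limma, adjusted p under 0.05), although 3 had an unadjusted p under 0.05. These were Mzb1 (log2 difference -1.13, adjusted p = 0.310), Ighg2b (-0.64, adjusted p = 0.354) and Pigr (0.75, adjusted p = 0.210). Ighg2b reached 1 TPM, the level required for testing, in 3 of the 4 controls and in no mid-colon library of days 3, 6 and 9. It was thus tested through the controls alone, could only come out lower, and is counted apart. At day 6, 14.9% of all genes changed and 9.99% fell. Of the 7 other members 0 passed in limma, although 6 of all 8 had an unadjusted p under 0.05. Ighg2b was 1.28 ± 0.288 TPM in the controls and 0.397 ± 0.361 TPM at day 6 (SD, n = 4 and 3, log2 difference -0.73, adjusted p = 0.0458). That call was lost without mouse 9 or mouse 10 (adjusted p = 0.161 and 0.121), and no member passed without mouse 1 or mouse 10. With trimmed-mean scaling Ighg2b no longer passed (adjusted p = 0.0687) and Pigr was higher instead (log2 difference 0.75, adjusted p = 0.00815).

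At day 9, 43.4% of all genes changed in the mid-colon, with 17.0% of all genes lower and 26.5% higher. Of the 7 members other than Ighg2b, 4 fell and 1 rose. Jchain fell from 76.1 ± 48.7 to 15.0 ± 4.33 TPM (log2 difference -2.06 ± 0.46 SE, adjusted p = 0.00489), Igha from 128 ± 86.9 to 32.6 ± 14.1 TPM (-1.81 ± 0.47 SE, adjusted p = 0.0105) and Igkc from 512 ± 332 to 153 ± 54.6 TPM (-1.58 ± 0.45 SE, adjusted p = 0.0164; SD, n = 4 and 3 throughout). Mzb1 (chr18:35647267-35649367, minus strand), which helps assemble antibody in the endoplasmic reticulum, fell as well (-0.94, adjusted p = 0.0453). Ighm moved the other way, from 3.02 ± 0.306 to 6.17 ± 1.71 TPM (0.81 ± 0.20 SE, adjusted p = 0.00864). Ighg2b, tested through the controls alone, was 0.0555, 0.422 and 0.158 TPM at day 9 (-0.92, adjusted p = 0.00264). The Mzb1 call was lost on leaving out any of mice 1, 3, 4, 11, 12 and 13 (adjusted p 0.0753 to 0.139) and the Igkc call without mouse 11 (adjusted p = 0.0728). With no filter on low values Igha, Igkc and Mzb1 did not pass (adjusted p = 0.051, 0.0698 and 0.123).

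In the rectum the log2 differences of Igha, Igkc and Mzb1 from the controls were lowest at day 3, whereas of days 3, 6 and 9 only day 9 had members that passed the test. Igha was 14.4, 58.6 and 71.5 TPM at day 3, 54.7, 45.5 and 92.1 TPM at day 6 and 35.1, 46.6 and 57.9 TPM at day 9, against 63.9 to 265 TPM in the controls. Only the day 9 values lay wholly below the control range. At day 3, 0 of 7 members passed (6.62% of all genes), and 3 had an unadjusted p under 0.05, Mzb1, Igha and Igkc (log2 differences -1.29, -1.68 and -1.47, adjusted p = 0.0621, 0.137 and 0.152). Mzb1 was below 1 TPM in all 3 libraries of day 3 and was tested through the controls alone, also without control mouse 2 (adjusted p = 0.00347). Without that mouse, which had the lowest rectal Igha of the controls, 3 members were called lower at day 6, namely Igha (adjusted p = 0.0181), Mzb1 (adjusted p = 0.0330) and Igkc (adjusted p = 0.0366). Mouse 2 is singled out by its low value, so the fits without it describe the other mice and test nothing further. The share of all genes called was not counted in them. With all mice 0 of 7 passed at day 6, when 48.7% of all genes changed, and only Igha had an unadjusted p under 0.05 (log2 difference -1.06, adjusted p = 0.0677). Pigr was called higher at day 6 without mouse 10 (log2 difference 0.49, adjusted p = 0.0122) and with trimmed-mean scaling (0.56, adjusted p = 0.0244).

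At day 9, when 53.5% of all genes changed in the rectum, 20.0% downward and 33.5% upward, 3 of 7 members fell and 1 rose. Igha fell from 146 ± 85.2 to 46.5 ± 11.4 TPM (log2 difference -1.48 ± 0.41 SE, adjusted p = 0.0141), Jchain from 59.4 ± 38.9 to 17.7 ± 1.62 TPM (-1.48 ± 0.42 SE, adjusted p = 0.0158) and Pigr from 886 ± 82.4 to 425 ± 199 TPM (-1.16 ± 0.27 SE, adjusted p = 0.00600; SD, n = 4 and 3). Ighm rose from 8.13 ± 7.40 to 29.5 ± 20.2 TPM (1.96 ± 0.68 SE, adjusted p = 0.0377), a call lost without mouse 2, 3, 12 or 13 (adjusted p 0.0682 to 0.147). Igkc (log2 difference -0.62, adjusted p = 0.220) and Mzb1 (0.05, adjusted p = 0.912) did not pass. The response of the rectum at day 9 did not differ by test from that of the mid-colon for any of 8 members (6.55% of all genes, limma interaction), 1 of them, Ighg2b, having an unadjusted p under 0.05, with differences of 0.34 for Igha, 0.99 for Mzb1 and 1.15 for Ighm on the log2 scale. With the mouse as a block, Mzb1 (adjusted p = 0.0182) and Igkc (adjusted p = 0.0411) passed, both with a higher log2 difference in the rectum than in the mid-colon, and without mouse 11 Pigr passed (log2 difference -1.10, adjusted p = 0.0401).

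In the anus Igkc, Jchain, Ighm and Pigr fell at day 9, and Igha passed at neither day 6 nor day 9. Igha was 11.9, 7.34 and 2.93 TPM at day 6 and 1.14, 1.28 and 6.22 TPM at day 9, against 33.0, 27.6, 5.43 and 79.6 TPM in the controls. Igkc went from 114 ± 76.9 TPM in the controls to 8.39 ± 8.70 TPM at day 9, and Jchain from 16.3 ± 15.6 to 0.730 ± 0.973 TPM (SD, n = 4 and 3). All day 9 values of Igkc and Jchain lay below all controls. Summed colonic epithelial markers were lower in these anal libraries too. They were 1711 to 5418 TPM in the controls, 83.7 to 193 TPM at day 6 and 104 to 139 TPM at day 9. Their part in the antibody gene results was not tested. At day 3, 0 of 5 members passed (0.0440% of all genes), and Ighm alone had an unadjusted p under 0.05. At day 6, 2 of 5 fell (15.0% of all genes changed, 6.37% downward), Ighm, from 10.7 ± 2.93 to 4.78 ± 1.19 TPM (adjusted p = 0.0289), and Pigr. At day 9, 4 of 5 fell (5.09% of all genes, 3.63% downward), namely Igkc (-3.68, adjusted p = 0.0275), Jchain (-2.99, adjusted p = 0.0472), Ighm (-1.69, adjusted p = 0.0311) and Pigr, and Igha had a log2 difference of -3.02 with adjusted p = 0.0636.

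These anal calls, Pigr apart, depended on single mice. Without control mouse 3, whose Igha was 5.43 TPM, 4 members passed at day 6, Igha (log2 difference -2.51, adjusted p = 0.0162), Igkc (-2.46, adjusted p = 0.00941) and Jchain (-2.30, adjusted p = 0.0318) beside Pigr, whereas only Pigr passed without mouse 9 or mouse 10. Mouse 3 is singled out by its low value, so the fit without it describes the other mice and tests nothing further. The share of all genes called was not counted in the fits of this paragraph. At day 9 the count of members called was 1 without mouse 2, 4 or 11 and 2 without mouse 12 or 13, and Jchain also lost its call without mouse 1 (adjusted p = 0.0681) and Ighm without mouse 3 (adjusted p = 0.0557).

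From day 14 the members were high in some mice and not in others. In the rectum, Igha was 144, 499 and 871 TPM in mice 14, 15 and 16 at day 14 and 2365, 1354 and 69.0 TPM in mice 17, 18 and 19 at day 20. Igkc was 632, 2107 and 2990 TPM and then 8278, 6104 and 374 TPM in the same mice. Jchain was 65.9, 110 and 206 TPM and then 897, 674 and 34.4 TPM. The low mouse was the same for these 3 genes in mid-colon, rectum and anus, mouse 14 at day 14 and mouse 19 at day 20. In the neo-epithelium mouse 19 was again lowest at day 20, but mouse 15 was lowest at day 14. There Igha was 64.4 TPM in mouse 15 and 168 TPM in mouse 14.

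With all mice, few members passed at these days. In the mid-colon 1 of 8 rose at day 14 (4.36% of all genes changed, 2.55% upward), Ighm, from 3.02 ± 0.306 to 21.1 ± 3.76 TPM (log2 difference 2.44 ± 0.18 SE, adjusted p = 0.000930), and 0 of 8 at day 20 (1.56% of all genes). There 4 had an unadjusted p under 0.05 in limma, and Ighm (2.39), Igkc (2.23), Ighg2b (1.84), Ighg1 (1.68) and Igha (1.98) had adjusted p of 0.0968, 0.209, 0.178, 0.0820 and 0.321. In the rectum 1 of 8 rose at day 14 (15.8% of all genes, 6.31% upward), Mzb1, from 3.31 ± 1.67 to 22.5 ± 15.4 TPM (2.22 ± 0.63 SE, adjusted p = 0.049996), and 0 of 8 at day 20 (7.68%), where 4 (Igkc, Ighg2b, Ighg1 and Ighm) had an unadjusted p under 0.05. The Mzb1 call was lost without any of mice 1, 2, 3, 4, 15 and 16 (adjusted p 0.0846 to 0.179). With trimmed-mean scaling Igkc also passed in the rectum at day 14 (1.95, adjusted p = 0.0499). In the anus 0 of 7 passed at day 20 (1.46% of all genes), where Pigr alone had an unadjusted p under 0.05, and Pigr alone of 6 fell at day 14 (4.27%, 2.01% downward). The changes in rectum and mid-colon did not differ by test at day 14 or day 20 for any of 9 members (0.00755% and 0.00756% of all genes), nor at an unadjusted p under 0.05, and Igha had differences of -0.31 ± 1.12 and 0.25 ± 1.75 (SE).

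The calls at days 14 and 20 turned on mice 14 and 19. Without mouse 14, 6 members were called higher in each of the mid-colon and the rectum at day 14. In the rectum these were Ighg2b (log2 difference 3.73, adjusted p = 0.000181), Ighm (3.82, adjusted p = 0.00752), Mzb1 (2.99, adjusted p = 0.00129), Ighg2c (2.85, adjusted p = 0.000682), Igkc (2.57, adjusted p = 0.00467) and Igha (2.35, adjusted p = 0.00878). Without mouse 19, 7 members were called higher in the mid-colon at day 20, Igha by 3.66 (adjusted p = 0.00589), and 8 in the rectum, Igha by 3.79 (adjusted p = 0.00280) and Ighg2b by 4.99 (adjusted p = 0.000413). Ighg2c, counted in the rectum at both days and in the mid-colon at day 20, was below 1 TPM in every control and entered these fits through the treated mice alone. These mice were singled out by their values, so the fits without them describe the other mice and test nothing further. The share of all genes called was not counted in these fits, so the counts of members have no background. In the anus at day 20, 0 members passed without mouse 19 as well.

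In mid-colon and rectum Ighm rose at day 9 while Igha fell, and most of it was the membrane transcript (63.3% to 91.2% in these 6 libraries). Igha was almost wholly secreted, with a membrane share of 0 to 5.14% in the 66 libraries. The membrane transcript of Ighm averaged 11.4 TPM over all libraries and the secreted one 4.57 TPM. In the rectum, membrane Ighm was 7.12, 1.18, 1.05 and 15.9 TPM in the controls, 14.1, 15.9 and 45.0 TPM at day 9, 5.62, 138 and 49.4 TPM at day 14 and 87.9, 36.7 and 8.83 TPM at day 20. Secreted Ighm was 3.46, 0.923, 1.26 and 1.61 TPM in the controls, 1.36, 4.54 and 7.75 TPM at day 9, 3.00, 15.5 and 9.97 TPM at day 14 and 32.2, 28.8 and 1.56 TPM at day 20. The membrane form made up 67.3%, 56.1%, 45.6% and 90.8% of Ighm in the rectal controls and 91.2%, 77.7% and 85.3% at day 9. It made up 65.2%, 89.9% and 83.2% at day 14 and 73.2%, 56.0% and 85.0% at day 20. The day 9 shares thus overlapped those of the controls.

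Markers of B cells moved with membrane Ighm. The 11 markers, among them Ms4a1 (CD20), a surface protein of B cells, and Cr2 (CD21), a complement receptor of mature B cells, summed to 2.58 to 39.8 TPM in the rectum of the controls, to 31.5, 42.6 and 115 TPM at day 9, to 12.7, 344 and 130 TPM at day 14 and to 223, 135 and 23.1 TPM at day 20, in the mouse order given above. In the rectum the mice of each of these 3 days had the same order in membrane Ighm as in summed markers. Secreted Ighm had that order too, so the order does not set the membrane form apart. Of the 11 markers, 4 of 7 tested rose in the rectum at day 9, against 33.5% of all genes. In the mid-colon at day 14, 7 of 8 tested rose, against 2.55% of all genes, but 6 of these were below 1 TPM in every control and were tested through day 14 alone. There membrane Ighm went from 2.01 ± 0.64 to 14.4 ± 2.7 TPM and the Igha of mouse 14 was still 111 TPM. Ighd, whose product IgD marks resting B cells, rose in the mid-colon at day 9 (log2 difference 1.17, adjusted p = 0.00300) and at day 14 (2.64, adjusted p = 0.00202). The part of B cells in the Ighm calls was not tested.

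**Figure D2:**
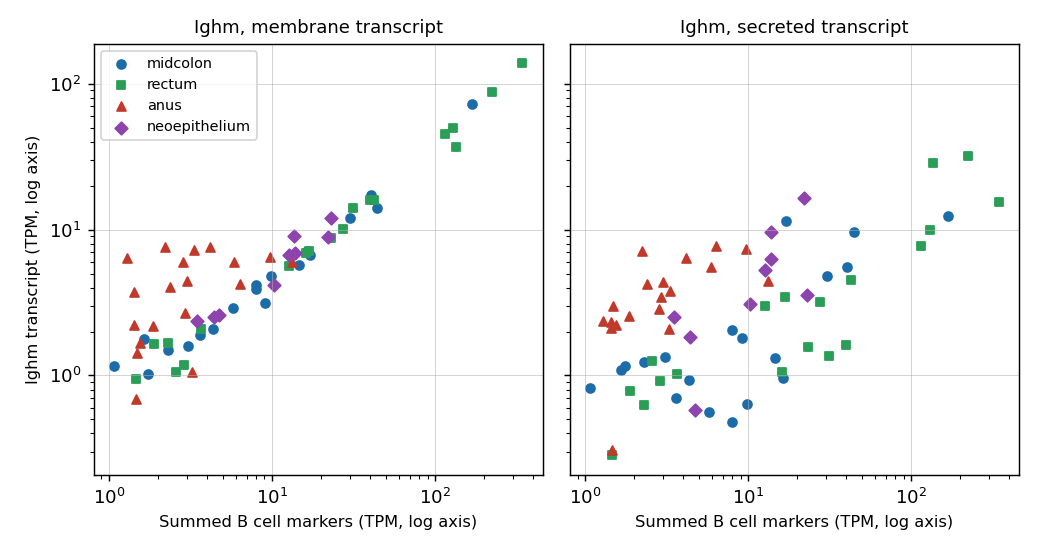
Membrane (left) and secreted (right) Ighm transcripts in TPM against the summed TPM of 11 B cell markers, 1 point per library, log axes. The membrane transcript rises with the markers up to 138 TPM at 344 TPM of markers (rectum, mouse 15, day 14), and most anal libraries lie above the others at low marker sums.

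In the anus, where Ighm fell at day 9, membrane and secreted Ighm had more similar levels. They were 6.30 ± 1.6 and 4.38 ± 2.0 TPM in the controls and 1.05 ± 0.37 and 1.80 ± 1.4 TPM at day 9 (SD, n = 4 and 3). Summed B cell markers there were 1.29 to 3.32 TPM in the controls and 1.46 to 3.26 TPM at day 9, so the anal Ighm levels at day 9 were lower at about the same marker sum.

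The IgG genes were present at low levels in the controls and had their highest values at days 14 and 20, unevenly between mice. Their summed level in the rectum was 3.35, 1.12, 3.52 and 1.84 TPM in the controls, 1.07 to 2.90 TPM from day 3 to day 9, 2.43, 28.7 and 77.6 TPM at day 14 and 108, 68.6 and 5.89 TPM at day 20. In the mid-colon it was 2.05 to 4.77 TPM in the controls, 0.172 to 5.73 TPM from day 3 to day 9, 2.61, 6.36 and 127 TPM at day 14 and 49.2, 22.1 and 12.1 TPM at day 20. The 5.73 TPM of mouse 6 at day 3 exceeded all controls. In the anus the sum was 0.108 to 1.31 TPM in the controls and 8.32 TPM in mouse 5 at day 3, of which Ighg1 made up 7.46 TPM. In mid-colon, rectum and anus, mice 17, 18 and 19 each had more than all controls at day 20, and in mouse 19 Ighg1 was the main gene. In mid-colon and rectum no IgG gene passed the test at day 14 or day 20 with all mice. With trimmed-mean scaling, Ighg2b passed in the rectum at day 14 (log2 difference 2.63, adjusted p = 0.0493) and Ighg1 at day 20 (1.70, adjusted p = 0.0357).

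The leading subclass differed between mice, although mouse 16 had high values of all 3 genes. Its rectum held 35.7 TPM of Ighg1, 30.9 TPM of Ighg2b and 11.0 TPM of Ighg2c. Ighg2b was highest in the rectum of mouse 17 (80.8 TPM, beside 12.2 TPM of Ighg1 and 15.5 TPM of Ighg2c), and Ighg2c, the C57Bl/6 form of IgG2a, in the mid-colon of mouse 16 (35.9 TPM, beside 64.2 TPM of Ighg2b). Ighg1 was high in mouse 16 at day 14, with 27.3 TPM in mid-colon and 14.4 TPM in neo-epithelium besides the rectum, and in mouse 19 at day 20, with 10.8, 4.11, 13.8 and 36.4 TPM in mid-colon, rectum, anus and neo-epithelium. The neo-epithelium of mouse 19 held 36.4 TPM of Ighg1 beside 1.93 TPM of Ighg2b, whereas that of mouse 18 held 1.41 TPM of Ighg1 beside 36.0 TPM of Ighg2b. In the anus of mouse 19, Ighg2b and Ighg2c were both listed at 0. Reads shared between these similar genes were divided among them by the quantification, so the split between subclasses is less certain than their sum.

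**Figure D3:**
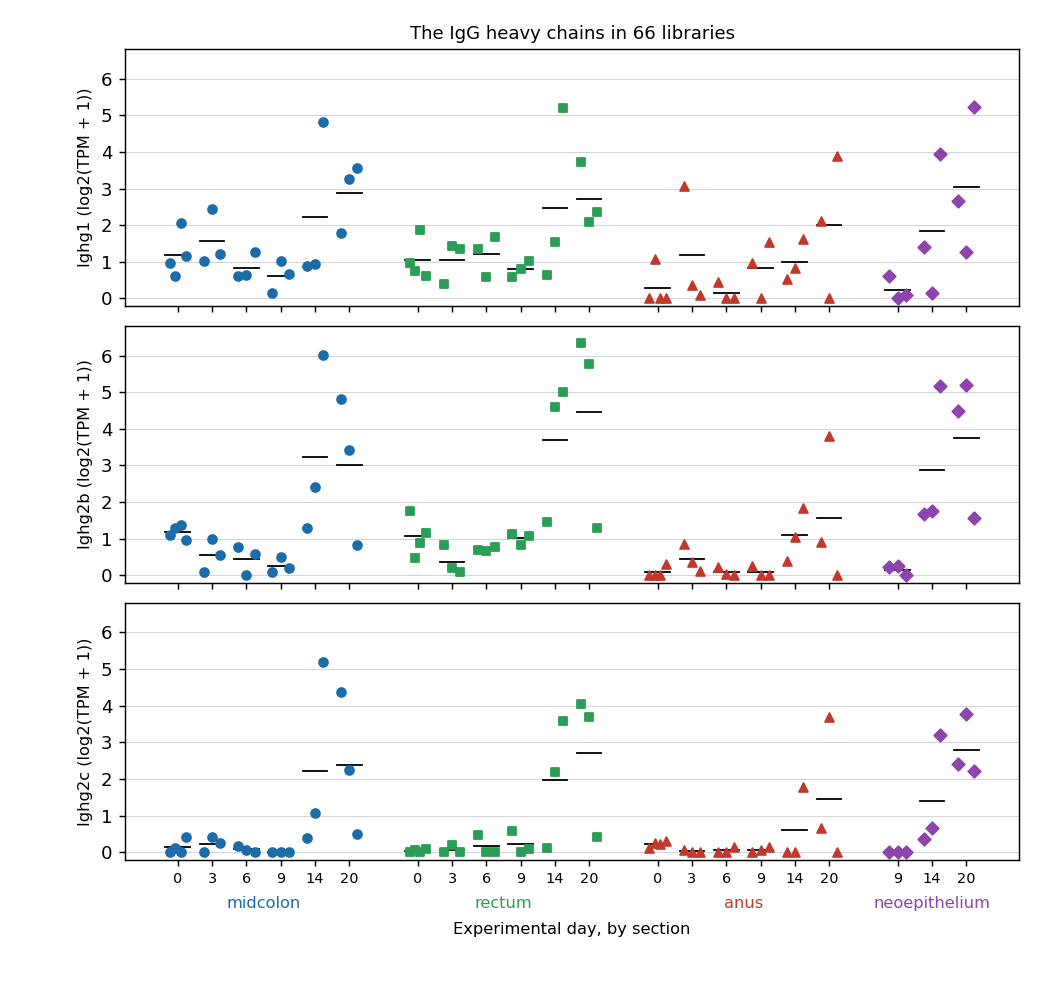
Ighg1, Ighg2b and Ighg2c as log2(TPM + 1) in each library, by section and experimental day, with points in order of mouse number and bars for group means. Ighg2c stays near 0 in all sections up to day 9, and at day 20 mouse 19 (last point) is low in Ighg2b but not in Ighg1.

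Pigr, the receptor that moves polymeric IgA and IgM across the epithelium, differed between sections as the colonic epithelial markers did. In the mid-colon it was 772 ± 165 TPM in the controls and 571 ± 92.8 TPM at day 9, and reached 1306 ± 327 TPM at day 3 and 1184 ± 556 TPM at day 20, with no call at any day. With trimmed-mean scaling it was called higher at day 6, as given above, and lower at day 9 (log2 difference -0.51, adjusted p = 0.0388). In the rectum it fell at day 9, as given above, when the colonic epithelial markers summed to 7928 to 10013 TPM against 13989 to 15027 TPM in the controls, with 4 of 8 called lower and 2 higher (20.0% and 33.5% of all genes). In the anus it was 163, 175, 160 and 601 TPM in the controls, 2.28, 1.63 and 2.25 TPM at day 6 and 0.678, 3.19 and 1.56 TPM at day 9. These 6 libraries lay far below every control. The fall was -6.24 ± 0.44 (SE) on the log2 scale at day 6 (adjusted p = 0.000211) and -6.45 ± 0.50 at day 9 (adjusted p = 0.000203). At day 14 anal Pigr was 30.9, 40.4 and 25.1 TPM and still below the controls (-2.82 ± 0.46 SE, adjusted p = 0.0158; adjusted p = 0.0721 without mouse 16), and at day 20 it was 158, 33.9 and 40.1 TPM (-1.91, adjusted p = 0.161).

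The colonic epithelial markers moved with Pigr in the anus. Their sum was 1711 to 5418 TPM in the controls, 83.7 to 193 TPM at day 6, 104 to 139 TPM at day 9, 195 to 514 TPM at day 14 and 514 to 1550 TPM at day 20. All 7 markers tested fell at days 6 and 9, against 6.37% and 3.63% of all genes, 1 of them at day 9 tested through the controls alone. Their part in the Pigr result was not tested. Ccl28, an epithelial chemokine that draws IgA plasma cells to mucosa, fell in the anus at day 14 (log2 difference -2.38, adjusted p = 0.0297). At days 6 and 9 it was below 1 TPM in every anal library and tested through the controls alone (-3.17 and -3.09, adjusted p = 0.00217 and 0.00386).

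**Figure D4:**
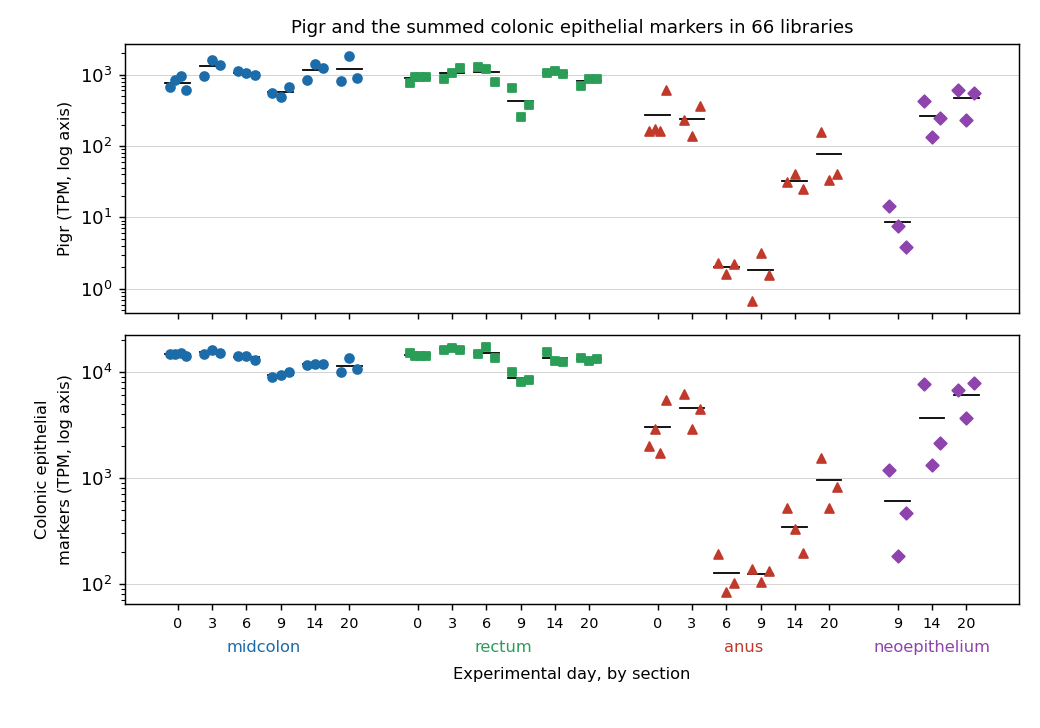
Pigr (top) and the sum of 8 colonic epithelial markers (bottom) in TPM on log axes in each library, by section and experimental day; bars are group means. In the anus both are lowest at days 6 and 9, when Pigr lies between 0.678 and 3.19 TPM, and in the neo-epithelium both are higher at day 20 than at day 9.

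Igha made up most of the heavy-chain transcripts in every library of mid-colon, rectum and neo-epithelium, but not in every anal library. As a share of the summed TPM of the 5 heavy-chain genes, IgA was 94.2% ± 3.00 in mid-colon, 93.2% ± 4.00 in rectum and 66.8% ± 27.2 in anus at day 0 (SD, n = 4). IgM was 3.02% ± 1.70, 5.07% ± 4.40 and 31.9% ± 27.4, and IgG 2.78% ± 1.63, 1.71% ± 0.732 and 1.29% ± 1.51. In the anus at day 9 the IgA share was 34.5%, 22.3% and 54.6%. The IgA share of the rectum was 81.0%, 94.8% and 94.7% at day 3, 77.5%, 83.4% and 93.9% at day 6, 66.5%, 68.0% and 51.3% at day 9, 92.9%, 73.2% and 86.4% at day 14, and 91.2%, 91.0% and 80.9% at day 20. The 3 values of day 9 lay below all others of the rectum. The IgM share was the mirror image, 29.3%, 29.8% and 46.7% at day 9 against 1.81% to 11.6% in the controls.

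Over the 6 days the class shares of the rectum changed. The range of the day means was 31.3 percentage points for IgA and 30.2 for IgM (permutation test, 100000 resamples, n = 19, p = 0.00402 and 0.00376, adjusted over 9 such tests p = 0.0181 for both). Both lost the call without mouse 13, which had the lowest IgA share at day 9 (ranges 26.0 and 24.5 points, adjusted p = 0.119). Both also lost it when only secreted transcripts were counted, where the IgA share of the rectum was 97.0% ± 0.616 at day 0 and 88.3% ± 2.65 at day 9 (SD) and the ranges were 8.72 and 6.70 points (adjusted p = 0.113). In the mid-colon the IgA and IgM shares had ranges of 14.2 and 15.2 points (adjusted p = 0.258 and 0.137), and in the anus 47.7 and 35.4 points (adjusted p = 0.137 and 0.194, permutation test). Without mouse 3 the anal IgA share passed (adjusted p = 0.0397).

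The IgG share was compared with day 0 at each of 5 days in 3 sections by an exact 2-sided permutation test over 35 splits, whose smallest possible p is 0.0286. In 0 of 15 comparisons did it pass after adjustment, and 1 reached the smallest unadjusted p. A single comparison at that smallest p cannot pass after adjustment over 15 tests. The outcome therefore does not show that the IgG shares were unchanged. This was the rectum at day 20, with 4.18%, 4.61% and 6.90% against 1.20% to 2.76% in the controls (mean difference 3.52 points, exact p = 0.0286, adjusted p = 0.257). Large single values stood out elsewhere, with 20.8% in the mid-colon and 30.1% in the anus of mouse 19, 20.5% in the neo-epithelium of mouse 16 and 35.3% in the anus of mouse 11, where the heavy-chain genes summed to 3.30 TPM. The IgG share over the 6 days did not pass in any section (adjusted p = 0.499, 0.194 and 0.194 in mid-colon, rectum and anus).

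**Figure D5:**
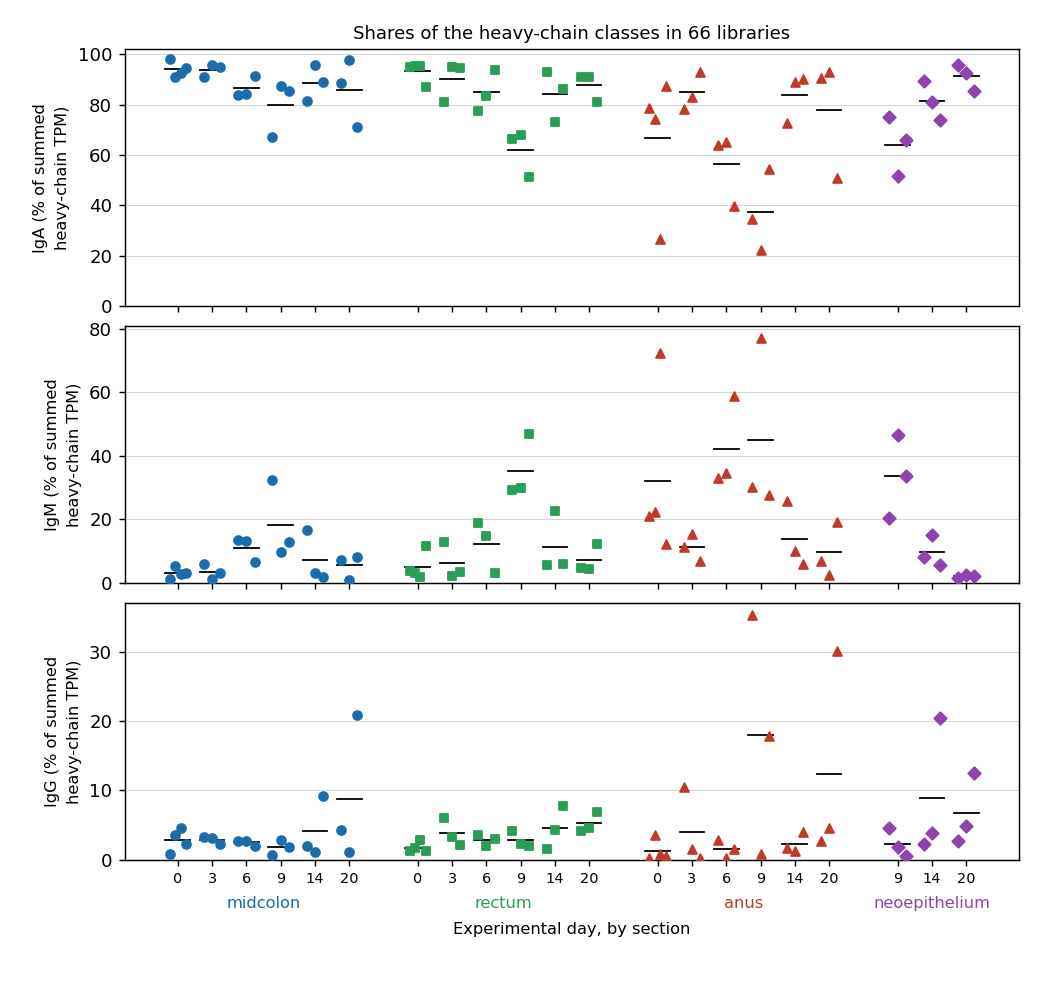
Shares of IgA, IgM and IgG in the summed TPM of Igha, Ighm, Ighg1, Ighg2b and Ighg2c, in percent, for each library by section and experimental day; bars are group means. IgA is lowest at day 9 in mid-colon, rectum and anus (means 80.0%, 61.9% and 37.1%), where IgM is highest (18.2%, 35.3% and 44.9%).

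Within mice, the IgA share was lower in the anus than in the rectum by 16.4 points on average (SD 21.9, higher in the anus in 5 of 19 mice, sign-flip permutation test, p = 0.00240, adjusted over 12 tests p = 0.0288). This call was lost on leaving out any of mice 1, 2, 3, 6, 8, 9, 10, 11, 12, 14 and 19 (adjusted p 0.0504 to 0.0672). The IgM share was 13.4 points higher in the anus (SD 22.7, higher in 14 of 19 mice, permutation p = 0.0117, adjusted p = 0.0703), and passed without mouse 13 (adjusted p = 0.0162) or mouse 15 (adjusted p = 0.0331). Rectum and mid-colon differed by -4.32 points in IgA, 4.67 in IgM and -0.35 in IgG (adjusted p = 0.215, 0.215 and 0.833). In the 9 mice with neo-epithelium, its IgA share was 1.05 points above that of the rectum (SD 10.1, exact sign-flip permutation p = 0.762) and 12.6 points above that of the anus (SD 19.5, exact p = 0.0977), with adjusted p of 0.831 and 0.215.

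The neo-epithelium gained antibody transcripts between day 9 and day 20. Igha was 11.6, 5.39 and 8.54 TPM at day 9, 168, 64.4 and 208 TPM at day 14 and 1081, 952 and 284 TPM at day 20. Igkc was 38.7, 17.0 and 33.5 TPM, then 555, 249 and 915 TPM, then 4982, 3513 and 1021 TPM. For both genes the 3 days did not overlap. The gain was not particular to this lining. From day 9 to day 20 mean Igha went from 46.5 to 1263 TPM in rectum, 32.6 to 978 TPM in mid-colon and 2.88 to 233 TPM in anus. Mouse 19 was lowest in each at day 20, and these days were not tested against each other there. In the neo-epithelium, all 5 members that reached 1 TPM in some library of each day were higher at day 20 than at day 9, against 10.1% of all genes higher and 26.2% changed. The differences on the log2 scale were 6.49 ± 0.64 for Jchain (adjusted p = 0.00270), 6.49 ± 0.61 for Igkc (adjusted p = 0.00243), 6.18 ± 0.53 for Igha (adjusted p = 0.00208), 5.64 ± 0.52 for Pigr (SE, adjusted p = 0.00230) and 1.62 for Ighm. The other 4 members were below 1 TPM in every library of day 9 and were tested through day 20 alone, which fixed their direction. Their differences were 3.59 for Ighg2b, 2.85 for Mzb1, 2.79 for Ighg2c and 2.81 for Ighg1 (adjusted p = 0.0277, 0.0107, 0.00599 and 0.0640).

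Pigr in the neo-epithelium was 14.4, 7.62 and 3.81 TPM at day 9, 422, 132 and 248 TPM at day 14 and 615, 230 and 556 TPM at day 20. Colonic epithelial markers rose with it, from 182 to 1174 TPM at day 9 to 3667 to 7865 TPM at day 20, with 6 of 7 tested called higher (10.1% of all genes), while squamous markers were 24001 to 25936 TPM at day 9 and 16295 to 18494 TPM at day 20. Ccl28 rose from 0.665 ± 0.91 to 26.9 ± 11 TPM (log2 difference 4.10, adjusted p = 0.00355). Their part in the antibody gene result was not tested. Ighm and Ighg2b lost their calls without mouse 11, 12, 13 or 17 (adjusted p 0.0733 to 0.102), Mzb1 without mouse 13 (adjusted p = 0.0516), and without mouse 13 the count of members called was 5.

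On average over days 9, 14 and 20, the neo-epithelium held less of several members than the rectum and more than the anus. Against the rectum 4 of 8 members were lower (22.0% of all genes lower, 42.9% changed), Pigr by -2.86 (adjusted p = 0.000375), Ighm by -1.83 (adjusted p = 0.00642), Igkc by -1.64 (adjusted p = 0.0381) and Mzb1 by -1.31 (adjusted p = 0.0350). Against the anus 5 of 8 were higher (40.1% of all genes higher, 59.8% changed), Pigr by 2.47 (adjusted p = 1.78e-05), Igkc by 1.96, Jchain by 1.52, Igha by 1.48 and Mzb1 by 0.86 on the log2 scale. With the mouse as a block, Jchain (-1.35, adjusted p = 0.0174) and Igha (-1.27, adjusted p = 0.0471) were also lower than in the rectum, and Ighg2b (1.34, adjusted p = 0.0114) and Ighm (0.36, adjusted p = 0.0468) also higher than in the anus. The gap to the rectum differed between days. Mean log2(TPM + 1) of Igkc was 4.86 in neo-epithelium and 8.10 in rectum at day 9, and 11.35 and 11.38 at day 20. At day 20 Igha was 9.38 and 9.25 and Jchain 8.10 and 8.12, in the same order. Pigr (8.75 and 9.66), Ighm (3.96 and 5.50) and Mzb1 (3.25 and 3.86) were still lower in the neo-epithelium at day 20. The difference between these sections was not tested at single days. Against the rectum only 2 members passed without mouse 11, 12, 13, 15 or 16, when Igkc and Mzb1 lost their calls, and Mzb1 also without mouse 17 (adjusted p = 0.0506). Against the anus 3 passed without mouse 11, 14 or 17, when Igha and Mzb1 lost theirs, and Mzb1 also without mouse 12 or 16 (adjusted p = 0.0651 and 0.0614) and with trimmed-mean scaling (adjusted p = 0.0884).

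Of the other antibody constant genes, Ighg3 and Ighe stayed at mean levels of at most 1.20 and 0.231 TPM in every group, and Iglc1 and Iglc3 had no values. Iglc2, a lambda light chain, fell in the mid-colon at day 6 (log2 difference -1.13, adjusted p = 0.0115) and day 9 (-1.35, adjusted p = 0.000791), was lower in the anus than the rectum at day 0 (-2.34, adjusted p = 0.00707) and rose in the neo-epithelium from day 9 to day 20 (4.76, adjusted p = 0.0244). At day 9 its change in the rectum was higher than that in the mid-colon (difference 2.55, adjusted p = 0.0419). Its highest values were 528 TPM in the rectum and 291 TPM in the neo-epithelium of mouse 17. The ratio of Igkc to summed heavy-chain TPM was 3.80 ± 0.327 in the mid-colon at day 0 (SD, n = 4) and 3.83 ± 0.158 at day 9 (n = 3). It was 3.06 ± 0.142 and 3.73 ± 0.667 in the rectum, and 2.28 ± 0.743 and 1.04 ± 0.499 in the anus. The change in this ratio was not tested.

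More of the general plasma cell genes rose than fell in mid-colon and rectum at day 9, when Igha fell. Their sum did not follow Igha across sections. In the anus it was 446 to 529 TPM in the controls and 537 to 653 TPM at day 9, when Igha was 1.14 to 6.22 TPM there. It was 669 to 805 TPM in the neo-epithelium at day 9. Which cells these transcripts came from was not tested. Of 16 genes, such as the regulators Xbp1 and Prdm1, 6 of 9 tested rose and 2 fell in the mid-colon at day 9 (median log2 difference 0.78, against 0.09 over all genes, of which 26.5% rose and 17.0% fell). In the rectum at day 9, 9 of 13 tested rose and 1 fell (median 1.02, against 0.13 over all genes, of which 33.5% rose and 20.0% fell). Xbp1, which drives the secretory machinery and is also expressed in epithelium, rose by 0.67 and 0.61 on the log2 scale (adjusted p = 0.0205 and 0.00254). The gene that fell in the rectum was Tnfrsf17, the BCMA receptor on which plasma cells depend (-0.82, adjusted p = 0.00161), which was tested through the controls alone, and those that fell in the mid-colon were Ell2 (-1.11) and Sdc1 (-0.86), a heparan sulfate proteoglycan of plasma cells and epithelium. At day 14 in the rectum 3 of 13 rose, against 6.31% of all genes, and 8 with trimmed-mean scaling, against 11.2%. From day 9 to day 20 of the neo-epithelium 0 of 11 changed in limma (26.2% of all genes), and 1 had an unadjusted p under 0.05.

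Among 14 signals for IgA plasma cells, 5 of 9 tested rose and 3 fell in the rectum at day 9 (median 0.51, against 0.13 over all genes, of which 33.5% rose and 20.0% fell). Of the 5, 3 were tested through day 9 alone, Il10 among them. Il10 (2.87, adjusted p = 2.54e-06) and Tgfb1 (2.52, adjusted p = 7.23e-05), cytokines that promote the switch to IgA, rose, and Ccl28 (-1.61, adjusted p = 2.88e-05), Aldh1a1 (-1.64, adjusted p = 0.000412), an enzyme of retinoic acid synthesis, and Tnfsf13 (APRIL, -0.68) fell. Aldh1a2, another enzyme of retinoic acid synthesis, was higher (0.51, limma, adjusted p = 0.0214) but was tested through day 9 alone. Ccl28 fell in the mid-colon at day 9 too (-0.66, adjusted p = 0.00754), and more so in the rectum (difference -0.95, adjusted p = 0.00948). Of 8 Fc receptor genes, whose products bind antibody on other cells, 5 of 7 tested rose and 2 fell in the rectum at day 9 (median 3.97, against the same 0.13 and the same shares), 1 in each direction tested through 1 group alone. Fcgr4 rose by 5.47 (adjusted p = 1.3e-05), and Fcgrt, the neonatal receptor that recycles IgG, fell by 0.92 (adjusted p = 0.00776).

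By Pearson r of log2(TPM + 1) over the 66 libraries, among 9301 genes with a mean of at least 5 TPM, 18 of the 20 genes most like Igha were immunoglobulin genes. Those closest among the rest were Jchain (r = 0.978), Mzb1 (0.873), H2-K1 (0.734), Trim34a (0.714) and Khdc1a (0.709). For the IgG sum they were Mzb1 (0.846), Jchain (0.788), Khdc1a (0.740), Insl6 (0.731) and 3830406C13Rik (0.680), again with 18 immunoglobulin genes in the first 20. For Pigr they were Tspan1 (0.983), Btnl5-ps (0.977), Adgrg7 (0.976), Cyp2d34 (0.975) and Sval1 (0.974), with no immunoglobulin gene in the first 20. Sections of the same mouse come from 1 animal, so the 66 libraries are not independent and these values are descriptions.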

How the data were processed

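Per the labels' protocols, libraries were stranded, made from mRNA and read from 1 end over 75 bases. The authors deposited 1 table of TPM values per transcript, without counts. The submitters' processing notes name CASAVA, kallisto and mm10, and versions and index are not given in the sources used here. Dropping 1318 repeated rows and 37344 without values left 88198 transcripts of 30452 genes, whose TPM were summed per gene. Gene identifiers matched GENCODE M21 (GRCm38), from which coordinates and coding ends were read.

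Genes of at least 1 TPM in as many libraries as the smaller group were tested on log2(TPM + 1) with limma 3.58.1 (R 4.3.3, trended empirical Bayes, Benjamini-Hochberg over all genes tested), using only the libraries compared. Fold changes on this scale understate those of low genes. A member not among those tested in a comparison was below that filter. A gene under 1 TPM in every library of 1 group was tested through the other group alone, which fixes its direction. Shares were tested by 2-sided permutation. The scripts were tested on simulated data. Members, lists and the rule for named genes (members, genes of the lists, and the 5 genes most alike by r that are not immunoglobulin genes) were chosen with earlier results of these data known. Sections of 1 mouse come from the same animal, and their deviations from group means had mean correlations of 0.0539 to 0.302. Alternatives were a pseudocount of 0.1, no filter, trimmed-mean scaling, the mouse as a block, other definitions of the shares and leaving out each mouse. In the fits that left out a mouse, the share of all genes called was not counted. Counting only secreted transcripts, and leaving out each mouse in tests of shares over days and between sections, were chosen after seeing the data.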

Additional observations from a re-analysis of the deposited data

Results flagged for a closer look

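In the day 0 groups of 4 mice, 6 of 36 sets of values held 1 mouse far from the other 3. Dixon's criterion was used at its 95% level. Its chance rate of about 1 in 20 holds for independent sets of normally distributed values. Many of these sets come from the same libraries and some lie near 0, so that rate is no measure for the count. Rectal Pigr was 763.6 TPM in mouse 1 against 912.2 to 935.3 TPM in the others, and anal Pigr was 600.6 TPM in mouse 4 against 160 to 174.6 TPM. The rectal IgA share was 87.23% in mouse 4 against 95.01% to 95.43%, and the anal IgM share was 72.41% in mouse 3 against 12.11% to 22.19%. Anal Ighg1 was 1.123 TPM in mouse 2 against at most 0.01693 TPM, and anal Ighg2b was 0.2428 TPM in mouse 4 and listed at 0 in the others.

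For 3 member and day pairs, all mice of the day lay above the day 0 range in 1 section and below it in another. The log2 differences below are between group means, and the differences between sections were not tested. Ighm at day 9 was higher in the mid-colon (log2 difference 0.8114) and lower in the anus (-1.688), 2.499 apart. Pigr at day 6 was 0.4719 in the mid-colon and -6.241 in the anus, 6.713 apart. Pigr at day 14 was 0.2694 in the rectum and -2.82 in the anus, 3.09 apart.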

How the results depend on the processing

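Depth is unknown, 3 or 4 mice a group limit the precision, and the IgG genes lie near the 1 TPM filter. Counts of members called moved as follows, and the cause was not tested. With a pseudocount of 0.1, 0 passed in mid-colon day 6 and rectum day 14. With no filter, 0 passed in mid-colon day 6, rectum day 14 and anus day 14, 1 each in anus days 6 and 9, 3 in mid-colon day 9 and 2 between neo-epithelium and rectum. With no filter, which raises the number of genes tested, 17 of 42 calls of members were lost, among them Igha (adjusted p = 0.051) and Igkc (0.0698) in mid-colon day 9, Ighm in rectum day 9 (0.0877), Jchain between anus and rectum (0.0534), Mzb1 between neo-epithelium and anus (0.0806), and Ighm (0.0684) and Ighg2b (0.0621) between its days. With trimmed-mean scaling 1 passed in rectum days 6 (Pigr) and 20 (Ighg1) and 3 in rectum day 14 (Mzb1, Igkc and Ighg2b), and Pigr was called in mid-colon days 6 and 9. A replicate block for the mouse gave 2 calls for the response of rectum against mid-colon at day 9, and 2 more each for the neo-epithelium against rectum and against anus, and the block changed no other call of a member.

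For class shares, secreted transcripts alone gave ranges over days of 8.719 points (IgA) and 6.701 points (IgM) in the rectum (adjusted p = 0.1128), an IgM share 14.05 points higher in anus than rectum (adjusted p = 0.00024), and reversed differences of neo-epithelium and rectum, -5.482 points in IgA and 3.767 in IgM. For the IgA share, anus minus rectum was -13.51 points with other heavy-chain genes added (adjusted p = 0.0849), -10.14 with the most abundant transcript per gene (0.2741) and -16.38 without the replicate block (unpaired, 0.1142). The IgM difference was 14.12 points with other heavy-chain genes added (0.0486).

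Leaving out 1 mouse at a time, the members called ranged in mid-colon from 0 to 1 at day 6, 1 to 6 at day 14 and 0 to 7 at day 20, in rectum from 0 to 1 at day 3, 0 to 3 at day 6, 0 to 6 at day 14 and 0 to 8 at day 20, and in anus from 1 to 4 at days 6 and 9 and 0 to 1 at day 14. They ranged from 3 to 5 for anus against rectum, 2 to 6 for neo-epithelium against rectum, 3 to 6 against anus, 5 to 9 for its day 20 against day 9 and 0 to 1 for the response at day 9. The IgG share difference from day 0 ranged in mid-colon from -0.5764 to 0.6695 points at day 3, -0.9711 to 0.2748 at day 6, -1.253 to 2.777 at day 14 (below 0 without mouse 16) and -0.09262 to 9.75 at day 20 (below 0 without mouse 19), and in anus from -0.449 to 4.675 at day 3 and -0.4144 to 0.9875 at day 6. Ranges over days were 25.95 to 34.3 (IgA) and 24.47 to 33.17 (IgM) in rectum and 40.29 to 56.44 (IgA) in anus. Anus minus rectum ranged from -18.16 to -13.48 in IgA and 10.27 to 15.26 in IgM, rectum minus mid-colon from -0.5617 to 0.4054 in IgG, and neo-epithelium minus rectum from -0.6418 to 3.228 in IgA.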
